A study of Mus musculus with 16 samples.

Results

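The 2 mature microRNAs cut from the mouse miR-142a hairpin, miR-142a-5p (MIMAT0000154) and miR-142a-3p (MIMAT0000155), were followed in small RNA libraries of splenic type 1 conventional dendritic cells (cDC1s), the dendritic cell subset that excels at cross-presenting antigen. They were chosen by identity, though with earlier results of these data known, and are 2 of the 853 mature microRNAs counted. Both were well above the filter on low counts, which kept 255 microRNAs for testing. The 16 libraries formed 4 groups of 4: cells labelled Xbp1-Ire1 KO, deficient in both Xbp1 and Ire1a, cells labelled Xbp1 KO, and the wild-type cells (WT) of the Xbp1-Ire1 line (written Ire1-Xbp1 line in the plots) and of the Xbp1 line. All came from mice of the C57BL6 strain with no other treatment named. Neither the promoter or Cre behind the deletions nor the age of the mice is stated in the labels. They also leave unsaid whether each sample of a group was a separate animal, so the p-values speak of the spread among these samples, part of which may be technical.

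MicroRNA hairpins are cut by the nuclease Dicer into a short duplex, and an Argonaute protein keeps one strand of it, the 5p or the 3p arm, as the guide that pairs with target mRNAs, mainly through its seed (bases 2 to 8). The miR-142 hairpin is transcribed in cells of all blood lineages and hardly outside them, and both of its arms are known to act as guides. Mice without it have defects in several immune lineages, dendritic cells among them. IRE1 is a sensor of endoplasmic reticulum stress. Its ribonuclease activates XBP1, a transcription factor, by splicing its messenger RNA, and it can also cleave other RNAs. Xbp1 KO cells keep that ribonuclease and Xbp1-Ire1 KO cells were made to lack it. The knockouts come from different lines and no group lacks Ire1a alone, so the design does not fully separate these losses. The deleted genes and the defining markers of cDC1s are messenger RNAs, which are not in a table of mature microRNAs, so neither could be checked here.

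The sequences are shown because the arms differ in seed and because a microRNA from the opposite strand resembles the 5p arm. RefSeq places the hairpin on the plus strand of GRCm38.p6 at chr11:87756864-87756927. GENCODE vM21 puts it inside Mir142hg, a lincRNA gene on the same strand spanning chr11:87755577-87757270, and outside its annotated exons. In the hairpin below, capitals mark the 2 mature arms. In the mature sequences, capitals mark the seed.
mir-142a hairpin: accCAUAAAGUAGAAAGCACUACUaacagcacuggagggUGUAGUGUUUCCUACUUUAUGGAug
miR-142a-5p: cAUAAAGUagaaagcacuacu
miR-142a-3p: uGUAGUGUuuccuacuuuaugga
miR-142b: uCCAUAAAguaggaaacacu

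The 5p arm covers bases 4 to 24 of the 64-base hairpin (chr11:87756867-87756887) and the 3p arm bases 40 to 62 (chr11:87756903-87756925), with 15 bases between them. In the structure of lowest energy that RNAfold predicted, at -26.9 kcal per mol, 19 of the 21 bases of the 5p arm paired with the 3p arm. Among the 1674 different mature mouse sequences in the RefSeq table, 0 others carry the seed of either arm, so each arm is alone in its seed family there. By the number of matching bases, the closest sequences to the 5p arm were miR-3969, with 17 of 19 aligned bases the same, miR-3964, with 17 of 20, and miR-142b, with 16 of 18. miR-142b comes from a hairpin on the minus strand of the same locus (chr11:87756841-87756955), and its whole sequence is part of the reverse complement of the 3p arm. Counted from the 5′ end of the 5p arm, with the 5p base first, miR-142b differs from it by A11G and G14A where the 2 align, and its seed is another one. For the 3p arm the best match reached 13 bases. How many mismatches the counting allowed is not stated, and no source used here ties miR-142b to an identifier, so its count could not be looked up. Any reads of miR-142b counted for the 5p arm cannot be told apart from 5p reads.

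miR-142a-5p was the more abundant arm in each of the 16 libraries, and by an order of magnitude. In Xbp1-Ire1 KO cells it stood at 32947, 23885, 26400 and 28479 CPM in replicates 1 to 4, where CPM are counts relative to a library size scaled by the trimmed mean of M-values (TMM). In Xbp1 KO cells it stood at 40621, 40042, 44783 and 34076 CPM in replicates 1 to 4. All 4 Xbp1-Ire1 KO libraries lay below all 4 Xbp1 KO libraries. In the wild type of the Xbp1-Ire1 line it was at 27581, 31637, 39525 and 26773 CPM in replicates 1 to 4, and in that of the Xbp1 line at 41288, 33884, 32903 and 33708 CPM in replicates 4, 5, 6 and 8. Each wild-type group overlapped with the knockout of its line and with the other wild type. These values rest on 5389 to 55744 reads of the 5p arm per library, and by reads it ranked between place 5 and place 11 among all microRNAs.

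miR-142a-3p, the arm many studies of blood cells have followed, stood at 2317, 2653, 1965 and 2563 CPM in Xbp1-Ire1 KO replicates 1 to 4. In Xbp1 KO replicates 1 to 4 it stood at 3199, 2863, 2384 and 3314 CPM. In the wild type of the Xbp1-Ire1 line it stood at 3100, 2697, 2794 and 2728 CPM, and in that of the Xbp1 line at 4061, 3165, 3479 and 2710 CPM. The Xbp1-Ire1 KO libraries lay below all 4 of their own wild type, by a narrow margin between 2653 and 2697 CPM, and overlapped with the Xbp1 KO libraries. The 3p arm had 485 to 4302 reads per library and ranked between place 25 and place 47.

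**Figure D1:**
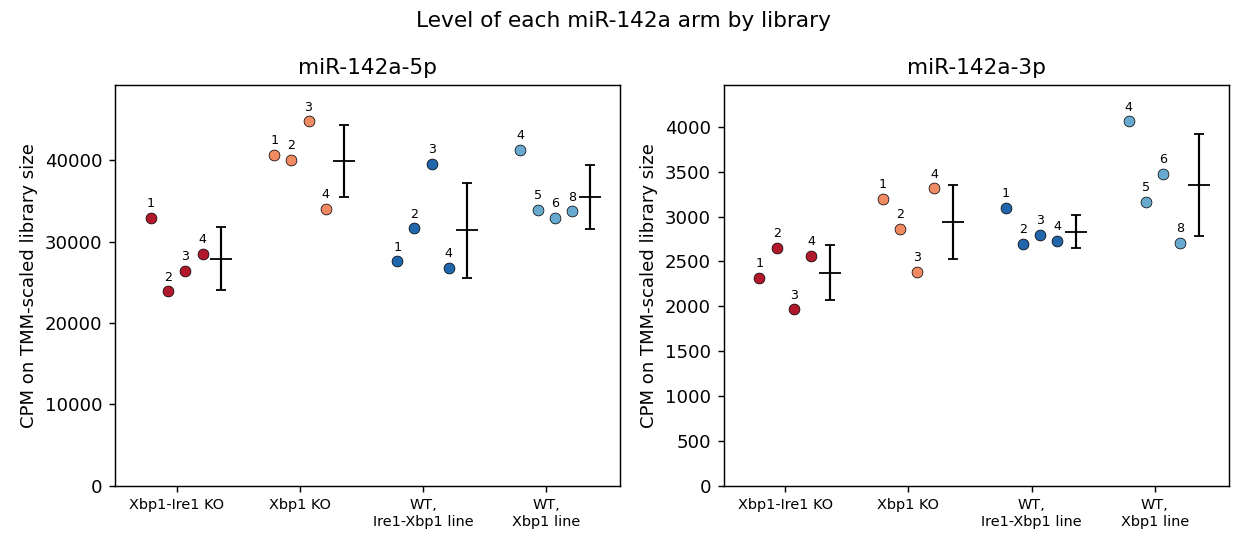
Level of each miR-142a arm in CPM on TMM-scaled library sizes, one point per library with its replicate number, in Xbp1-Ire1 KO and Xbp1 KO cells and the wild types of both lines; the bar beside each group is the mean ± SD (n = 4). The 5p values of Xbp1-Ire1 KO cells, 23885 to 32947 CPM, lie below those of Xbp1 KO cells, 34076 to 44783 CPM, while the 3p values of these groups overlap.

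Ordered by group mean, the 5p arm was highest in Xbp1 KO cells at 39880 ± 4409 CPM (SD, n = 4 in each group). The wild type of the Xbp1 line followed at 35446 ± 3918 CPM, that of the Xbp1-Ire1 line at 31379 ± 5833 CPM and Xbp1-Ire1 KO cells were lowest at 27928 ± 3837 CPM. No neighbours in this order passed the test, and the ends did. The order of the 3p arm was another one: the wild type of the Xbp1 line was highest at 3354 ± 567 CPM, followed by Xbp1 KO cells at 2940 ± 417 CPM, the wild type of the Xbp1-Ire1 line at 2830 ± 185 CPM and Xbp1-Ire1 KO cells at 2375 ± 308 CPM. For this arm no comparison made passed, some pairs were not compared, and the order is a description. Xbp1-Ire1 KO cells had the lowest mean of both arms. Reads measure a share of the microRNA pool, so less of an arm per cell and more of other microRNAs cannot be told apart.

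The comparison of the knockouts, which asks what the loss of Ire1a adds to the loss of Xbp1 but also holds any difference between the lines, gave the one arm result that passed with TMM scaling. miR-142a-5p was lower in Xbp1-Ire1 KO than in Xbp1 KO cells, at -0.51 on the log2 scale (SE 0.14, 95% interval -0.80 to -0.23), with an adjusted p of 0.0335 in edgeR's quasi-likelihood test across the 255 microRNAs. Of these, 7.45% were called in this comparison, 13 higher and 6 lower, and the median log2 fold change over all 255 was 0.13. With upper-quartile scaling the split turned to 4 higher and 22 lower and the median to -0.11, and the 5p arm stood at -0.75. Relative to the median the 5p arm was at -0.64 with either scaling. A change of scaling shifts all microRNAs about alike, so this likeness had to arise. For miR-142a-3p the edgeR estimate was -0.31 (SE 0.14, 95% interval -0.61 to -0.01) with an adjusted p of 0.267, which did not pass, and with upper-quartile scaling it was -0.56 with 0.0424. Called members were thus 1 of 2. The CPM ranges of these groups did not overlap for 1 of the 2 arms, against 11.8% of all 255.

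The adjusted p lies close to the threshold of 0.05, and this call moved with single libraries and with depth. Without Xbp1 KO replicate 1, 2 or 3 the edgeR adjusted p was 0.0751, 0.112 and 0.0680, and without Xbp1-Ire1 KO replicate 2, 3 or 4 it was 0.0595, 0.0938 and 0.0809, while the log2 fold change stayed between -0.60 and -0.49. Libraries of Xbp1-Ire1 KO cells held 175165 to 978134 counts and those of Xbp1 KO cells 783372 to 1403393. With depth (log2 total count) as a covariate, the log2 fold change was -0.30 with an edgeR adjusted p of 0.384. After thinning of every library to 175165 counts it was -0.53 with an edgeR adjusted p of 0.0184. Thinning keeps the proportions within a library, so it cannot test a relation of the level with depth. The pair of libraries nearest in depth, chosen for their depth, held 978134 counts in Xbp1-Ire1 KO replicate 1 and 969371 in Xbp1 KO replicate 2. The 5p arm stood at 32947 CPM in that Xbp1-Ire1 KO library and at 40042 CPM in that Xbp1 KO library. A single pair cannot show how the groups differ at equal depth.

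**Figure D2:**
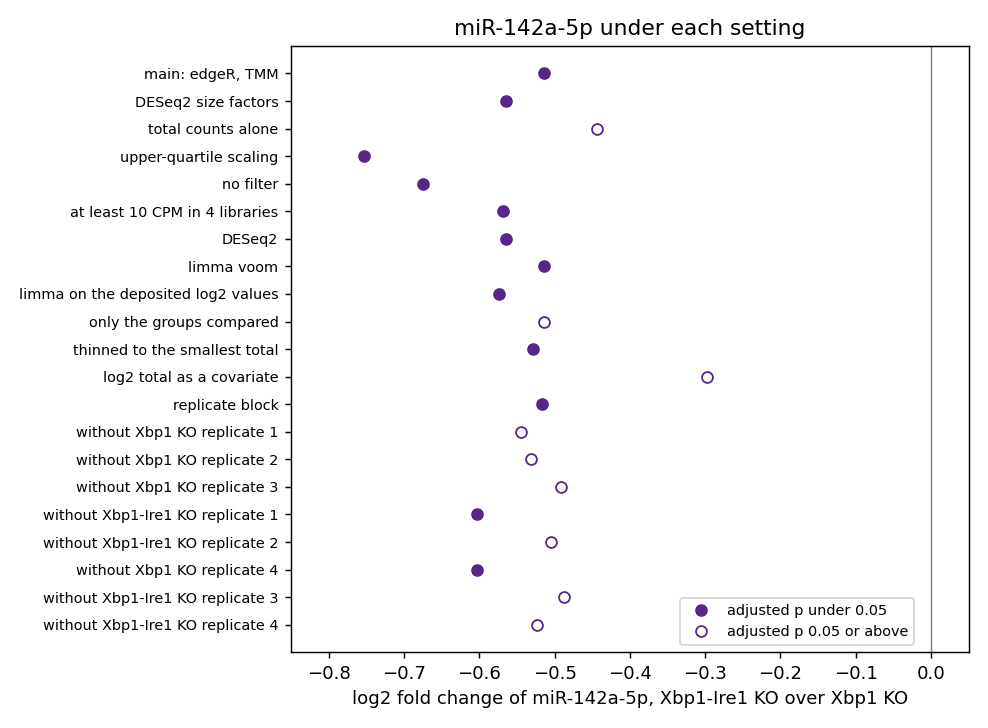
Log2 fold change of miR-142a-5p in Xbp1-Ire1 KO over Xbp1 KO cells under the TMM fit and each other setting, with filled points where the adjusted p was under 0.05. Every point lies below 0, from -0.75 with upper-quartile scaling to -0.30 with depth as a covariate, and open points are found among the libraries left out, the covariate, total counts alone and the fit of these groups only.

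Against the wild type of their own line, neither arm passed in either knockout with TMM scaling. In Xbp1-Ire1 KO cells the log2 fold change was -0.17 (SE 0.14, 95% interval -0.46 to 0.12, edgeR adjusted p 0.606) for the 5p arm. It was -0.44 with upper-quartile scaling, where it passed with an edgeR adjusted p of 0.0321 while the median of all 255 microRNAs was -0.24. With 1 library left out it ran from -0.28 to -0.038, the last without replicate 3 of the wild type. For the 3p arm it was -0.25 (SE 0.14, interval -0.56 to 0.05, edgeR adjusted p 0.365). In this comparison 5.88% of the 255 microRNAs were called, and the groups did not overlap for 9.8%, the 3p arm being among them. In Xbp1 KO cells the log2 fold change was 0.17 (SE 0.14, interval -0.12 to 0.46, edgeR adjusted p 0.662) for the 5p arm and -0.19 (SE 0.14, interval -0.49 to 0.11, edgeR adjusted p 0.617) for the 3p arm. Here 2.35% were called, the groups did not overlap for 11.8%, and both arms overlapped. The intervals reach to -0.56 on one side and 0.46 on the other, so these tests do not show that knockout and wild type are alike.

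The change of the 5p arm had a negative sign in Xbp1-Ire1 KO cells and a positive one in Xbp1 KO cells, each relative to its wild type. The difference of these changes was -0.34 (SE 0.19, interval -0.74 to 0.07) for the 5p arm and -0.06 (SE 0.20, interval -0.49 to 0.36) for the 3p arm, with edgeR adjusted p-values of 0.656 and 0.989. In this test 0% of the 255 microRNAs were called and 26 had an unadjusted p under 0.05. DESeq2 called 5 of the 140 to which it gave an adjusted p, and limma voom called 0. Apart from rounding, the called difference of -0.51 between the knockouts in the 5p arm is the sum of that -0.34 and of -0.18 between the wild types (SE 0.14, interval -0.46 to 0.11, edgeR adjusted p 0.766), neither of which passed. For the 3p arm the wild type of the Xbp1-Ire1 line differed from that of the Xbp1 line by -0.25 (SE 0.14, interval -0.55 to 0.06, edgeR adjusted p 0.602). Between the wild types 0% were called in edgeR, with 24 at an unadjusted p under 0.05, 4 called by DESeq2 and 0 by limma voom, and the groups did not overlap for 4.31%, neither arm among them.

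Averaged over both lines, knockout against wild type, the 5p arm had an estimate of 0.00 on the log2 scale (SE 0.10, edgeR adjusted p 0.996, interval -0.20 to 0.20). The 3p arm had -0.22 (SE 0.10, interval -0.44 to -0.01, edgeR adjusted p 0.200) and did not pass after adjustment. In this comparison 7.45% of the 255 microRNAs were called. The sign of the 5p estimate depended on the scaling: it was -0.11 with total counts alone and -0.079 with upper-quartile scaling.

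**Figure D3:**
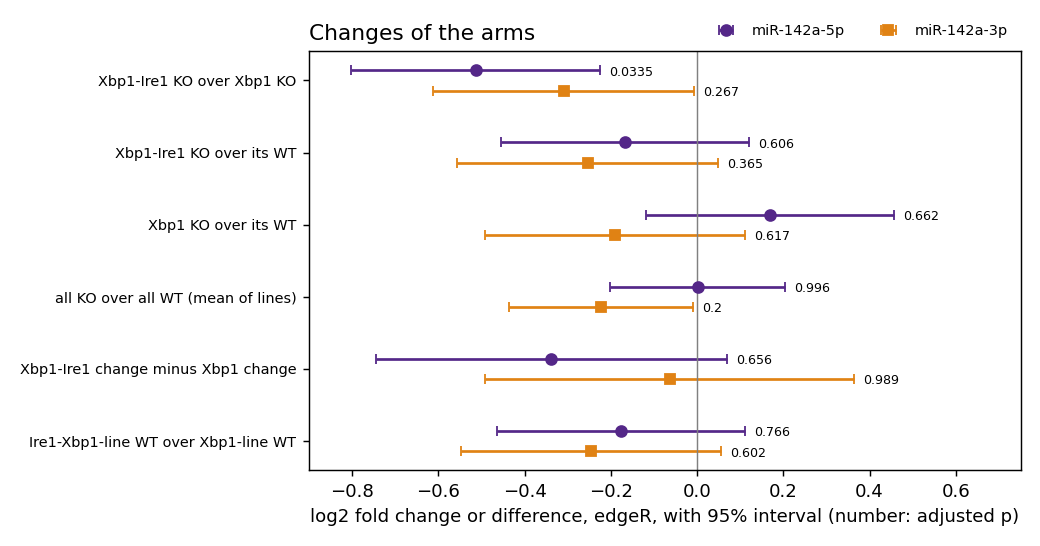
Log2 fold changes of the miR-142a arms in edgeR (points) with 95% intervals (bars) and adjusted p-values (numbers), for each comparison of knockouts and wild types and for the difference of the changes of the lines. The interval of the 5p arm between the knockouts, -0.80 to -0.23, is the one farthest from 0, and the arms point in opposite directions in Xbp1 KO cells over their wild type, at 0.17 and -0.19.

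The arm ratio, 5p reads per 3p read of the same library, needs no scaling between libraries. It was 14.2, 9.0, 13.4 and 11.1 in Xbp1-Ire1 KO replicates 1 to 4 and 12.7, 13.99, 18.8 and 10.3 in Xbp1 KO replicates 1 to 4. In the wild type of the Xbp1-Ire1 line it was 8.90, 11.7, 14.1 and 9.81, and in that of the Xbp1 line 10.2, 10.7, 9.46 and 12.4. All 4 groups overlapped. Ligation of adapters favours some read ends over others, so a ratio of reads need not be the ratio of molecules. The 5p arm held 89.9% (exact 95% interval 89.3% to 90.4%) of the reads of both arms in the library with the lowest share, wild type of the Xbp1-Ire1 line replicate 1. It held 94.9% (94.8% to 95.1%) in the library with the highest, Xbp1 KO replicate 3. Such intervals cover counting error only, as reads without molecular identifiers can be copies.

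Group means of the ratio were 11.9 ± 2.36 in Xbp1-Ire1 KO cells (SD, n = 4 in each group), 13.9 ± 3.58 in Xbp1 KO cells, 11.1 ± 2.32 in the wild type of the Xbp1-Ire1 line and 10.7 ± 1.27 in that of the Xbp1 line. The samples of 1 group differed in their ratio by far more than counting error: chi-square divided by its 3 degrees of freedom was 46.3 in Xbp1-Ire1 KO cells, 164 in Xbp1 KO cells, 64.1 in the wild type of the Xbp1-Ire1 line and 19.9 in that of the Xbp1 line.

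No comparison of the log2 ratio passed. For Xbp1 KO cells against their wild type, the log2 ratio differed by 0.36 (SE 0.20), which is a 1.28-fold ratio, with p 0.114 in an exact permutation test (two-sided) and 0.429 after adjustment over the 10 tests of ratio and combined share. For Xbp1-Ire1 KO cells against theirs, the difference was 0.10 (SE 0.21), with an exact permutation p of 0.657 and 0.730 adjusted. Averaged over the lines, with labels exchanged within each line only, the knockouts had a log2 ratio higher by 0.23 (SE 0.14) and an exact permutation p of 0.138, adjusted to 0.429. The difference was -0.21 (SE 0.23) between Xbp1-Ire1 KO and Xbp1 KO cells, with an exact permutation p of 0.429 and 0.714 adjusted, and 0.04 (SE 0.17) between the wild types, with 0.857 for both. The smallest p that 4 against 4 libraries can give is 0.0286, so these tests could hardly pass after adjustment, while the average over the lines, with 4900 labelings, is not bound by it. Single libraries moved the estimates: the 0.36 of Xbp1 KO cells ran from 0.20, without Xbp1 KO replicate 3, to 0.49, and the -0.21 between the knockouts from -0.35 to -0.056, again without that library. Without Xbp1-Ire1 KO replicate 2 the difference between the knockouts was -0.083, and that of Xbp1-Ire1 KO cells from their wild type was 0.23.

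**Figure D4:**
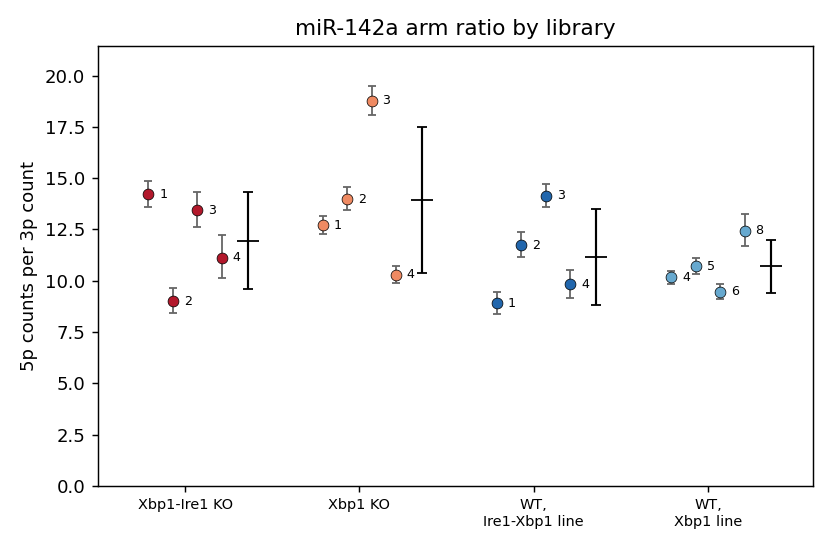
Number of miR-142a-5p reads per miR-142a-3p read in each library, with exact 95% intervals for counting error (thin bars) and replicate numbers, and the mean ± SD of each group (n = 4, thick bar). The ratio ran from 8.90 to 18.8, Xbp1 KO replicate 3 stood highest, and the groups overlapped.

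Both arms together held 3.36%, 2.51%, 2.75% and 3.35% of all microRNA reads in Xbp1-Ire1 KO replicates 1 to 4, against 4.10%, 4.26%, 4.18% and 3.56% in Xbp1 KO replicates 1 to 4. These ranges did not overlap. The means were 2.99% ± 0.431 and 4.03% ± 0.316 (SD, n = 4 in each group), a difference of -1.03 percentage points (SE 0.267) with an exact permutation p of 0.0286, the smallest possible, and 0.286 after adjustment. In the wild types the combined share was 3.65% ± 0.706 in the Xbp1-Ire1 line and 3.92% ± 0.297 in the Xbp1 line. Xbp1-Ire1 KO cells differed from their wild type by -0.655 percentage points (SE 0.414, exact permutation p 0.171, adjusted 0.429) and Xbp1 KO cells from theirs by 0.106 (SE 0.217, exact permutation p 0.600, adjusted 0.730). The 5p arm makes up most of this share, so it repeats the pattern of that arm. The most abundant microRNA held 18.7% to 24.7% of the reads in Xbp1-Ire1 KO, 28.2% to 34.8% in Xbp1 KO, 19.7% to 25.6% in wild-type libraries of the Xbp1-Ire1 line and 21.4% to 28.5% in those of the Xbp1 line. With it left out of the total, which makes every share larger, the difference was -2.17 percentage points between the knockouts and 0.756 for Xbp1 KO cells against their wild type, with adjusted permutation p-values of 0.286 and 0.343. The part of that microRNA in the shares was not tested further.

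The level of the 5p arm was related to depth. Over the 16 libraries the 5p level in log2 CPM correlated with the log2 total count with Pearson's r of 0.79 (permutation p 0.00027, adjusted over 5 relations 0.00135) and Spearman's rho of 0.84 (permutation p 0.00011, adjusted 0.00055). Without the 2 libraries farthest from the median depth r was 0.82, and over deviations from the group means it was 0.63. The permutations exchanged all 16 libraries without regard to group, so their p-values take in differences between groups. The relations over deviations from the group means were not tested. For the 3p level r was 0.25 and rho 0.26 (permutation p 0.345 and 0.333), and over deviations from the group means r was -0.09. The log2 arm ratio gave r of 0.50 and rho of 0.54 with depth (permutation p 0.05001 and 0.0350, adjusted 0.0833 and 0.0584), so this relation did not pass, and over deviations from the group means r was 0.49. The deepest library of a group had its highest ratio in Xbp1-Ire1 KO cells, Xbp1 KO cells and the wild type of the Xbp1-Ire1 line, while in the wild type of the Xbp1 line the shallowest library had it. The combined share gave r of 0.63 and rho of 0.70 with depth (permutation p 0.00894 and 0.0036, adjusted 0.0223 and 0.0090). Xbp1-Ire1 KO libraries were on average shallower than Xbp1 KO libraries and had the lower 5p level. The part of depth in that difference thus cannot be told apart from genotype or line beyond the covariate fit given above. Xbp1-Ire1 KO cells and their wild type were alike in mean depth, at 524042 and 518607 counts. Xbp1 KO cells and their wild type were deeper, at means of 1065600 and 825763 counts. Both groups of the Xbp1 line also had the higher mean 5p levels. Line, depth and 5p level thus went together in the group means and cannot be told apart.

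**Figure D5:**
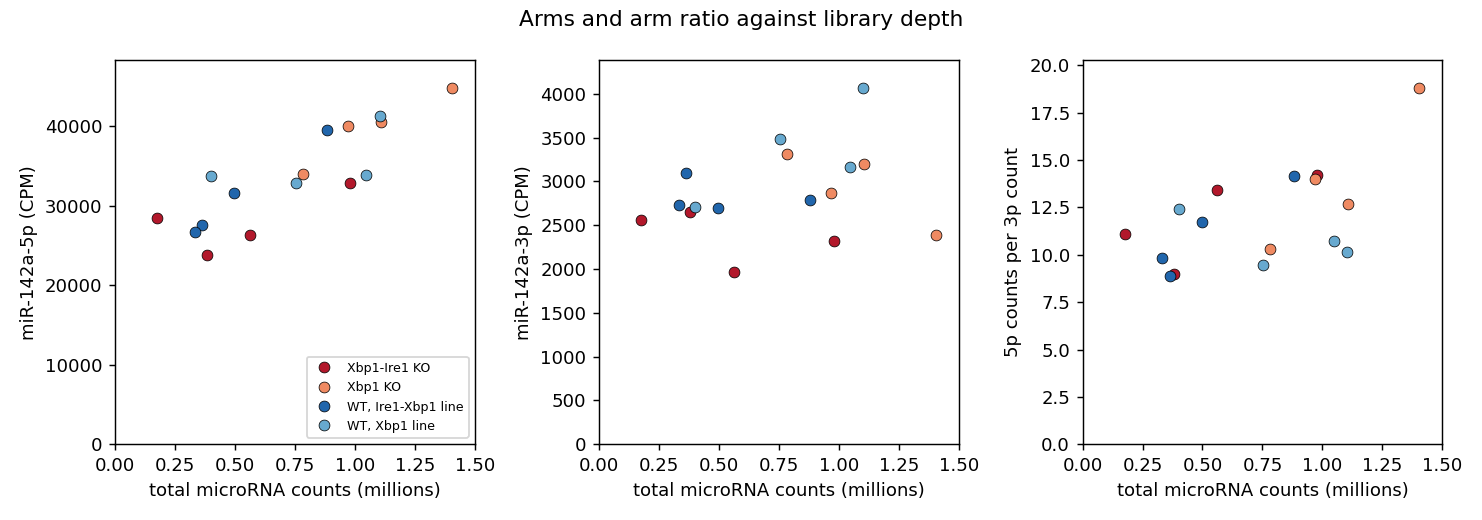
Level of miR-142a-5p and of miR-142a-3p (CPM on TMM-scaled library sizes) and the number of 5p reads per 3p read, each against the total microRNA count of the library, with one point per library coloured by group. The 5p level is higher in deeper libraries (r of 0.79 on log2 scales), r is 0.25 for the 3p level, and the Xbp1-Ire1 KO libraries lie mostly at low depth.

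Although cut from one hairpin, the arms did not move closely together. Over the 16 libraries their log2 CPM gave Pearson's r of 0.35 (permutation p 0.180, adjusted 0.224) and Spearman's rho of 0.41 (permutation p 0.112, adjusted 0.140). Without the 2 libraries of 5p level farthest from the median r was 0.55, and over deviations from the group means it was -0.10. Ranked by r, the 3p arm came in place 57 among the tested microRNAs most like the 5p arm, and the 5p arm in place 33 for the 3p arm. The microRNAs most like the 5p arm were MIMAT0000667 (r of 0.84, at a mean of only 10.3 CPM), MIMAT0000526 (0.80, 493 CPM) and MIMAT0000665 (0.79, 1656 CPM). For the 3p arm they were MIMAT0000133 (r of 0.72, 2121 CPM), MIMAT0000534 (0.65, 3326 CPM) and MIMAT0000654 (0.63, 11.9 CPM). These are descriptions over the same libraries, which differ in depth and were scaled together, and the identifiers have no names in the sources used here.

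In mean CPM over all libraries, miR-142a-5p took place 9 at 33658 CPM, between MIMAT0000521 at 34277 CPM and MIMAT0000531 at 24127 CPM. miR-142a-3p took place 38 at 2875 CPM, between MIMAT0017056 at 2897 CPM and MIMAT0000517 at 2541 CPM. The ranges over libraries of the arm and of its upper neighbour overlapped in both cases, 23885 to 44783 CPM against 25229 to 47220 CPM for the 5p arm and 1965 to 4061 CPM against 1548 to 4862 CPM for the 3p arm.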

How the data were processed

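Per the labels' protocols, 5000 to 50000 cDC1s per sample were sorted into Qiazol, and the TruSeq small RNA kit was used for the libraries, which were size selected. Tools named in the submitters' processing notes, without their roles, are Bowtie 1.1.2, cutadapt 1.8.1, limma 3.42.2 and FastQC 0.11.3, and the builds named are mm10 and GRCm38. The authors deposited raw counts of reads for 853 microRNAs, used here for all tests, and log2 values for 473. Within each library these differ from the log2 of the count plus 0.5 by a constant, as log2 CPM do. The library size behind that constant is not shown here. Totals ranged from 175165 to 1403393 counts per library. How reads matching several microRNAs were treated is not given in the sources used here.

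Groups and replicate numbers came from the sample descriptions. No pair of samples in a group was close enough to be a repeat deposit: the chi-square of their counts over its degrees of freedom was 15.7 or more. The test was edgeR 4.0.16 in R 4.3.3: all 16 libraries in 1 quasi-likelihood fit with a mean for each of the 4 groups, after TMM scaling and filterByExpr (count minimum of 10), with two-sided tests and Benjamini-Hochberg adjustment over 255 microRNAs at 0.05. Standard errors are the absolute log2 fold change divided by the root of F. Ratios and shares were compared by exact permutation of the libraries (two-sided), and relations with 100000 permutations of all 16 libraries without regard to group (scipy 1.17.1). RNAfold 2.7.2 folded the hairpin. DESeq2 1.42.0 and limma 3.58.1 were alternatives. The fit was also run on simulated data. Those had less spread than these data and larger changes than the arms had, so they cannot show how well changes of this size are found. The members, lists and tests were chosen with earlier results of these data known.

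Planned for naming were both arms, the 3 microRNAs of highest r with each, their neighbours in mean CPM and the members of 2 name lists. Of 20 blood-cell microRNAs and 23 markers of other cell types, 0 could be matched, because the reference pairs no identifier with a name. For the same reason the arm ratios of other hairpins were not analysed here.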

Additional observations from a re-analysis of the deposited data

Results flagged for a closer look

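Of 16 groups of 4 values (both arm levels, the arm ratio and the combined share in each group), 1 held a library far from the others by Dixon's criterion for 4 samples, and chance gives this for about 1 in 20 groups. In the wild type of the Xbp1 line, miR-142a-5p stood at 41288 CPM in replicate 4. Replicates 5, 6 and 8 stood at 32903 to 33884 CPM, so on the log2 scale 0.871 of the range of the group lay between replicate 4 and its nearest neighbour. The library held 1103001 counts and was the deepest of its group. Without it, the log2 fold change of the 5p arm in Xbp1 KO cells against this wild type was 0.25 with an edgeR adjusted p of 0.437, against 0.17 with all libraries, and did not pass either way. The cause was not tested.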

How the results depend on the processing

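The 5p arm between Xbp1-Ire1 KO and Xbp1 KO cells kept its direction under all alternatives run. Its log2 fold change lost the threshold at -0.44 with total counts alone (adjusted p 0.0676), at -0.51 with only these groups in the fit (0.0536) and at -0.30 with depth (log2 total count) as a covariate (0.384). With 1 library left out it ran from -0.60 to -0.49, with adjusted p-values of 0.0151 to 0.112. Relative to the median of all 255 microRNAs it was -0.64 with TMM, -0.64 with DESeq2 size factors, -0.63 with total counts and -0.64 with upper-quartile scaling, which moved that median from 0.13 to -0.11. Upper-quartile scaling alone made a call of the 5p arm in Xbp1-Ire1 KO cells against their wild type (-0.44, adjusted p 0.0321) and of the 3p arm between the knockouts (-0.56, adjusted p 0.0424). Signs turned for values near 0. The difference of the changes of the 3p arm was 0.036 in thinned counts and -0.21 to 0.026 with 1 library left out. The 5p arm over all knockouts against all wild types was -0.11 with total counts alone, -0.079 with upper-quartile scaling, -0.029 with a minimum of 10 CPM, -0.020 with the covariate and -0.059 to 0.066 with 1 library left out. The log2 arm ratio with 1 library left out ran from -0.00107 to 0.23 in Xbp1-Ire1 KO cells against their wild type and from -0.078 to 0.15 between the wild types. The cause was not tested.

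Counts of calls moved by over 1.5 times. They are over 255 microRNAs except for 808 without a filter, 473 on the deposited log2 values, 163 in thinned counts and 140 to 254 with an adjusted p from DESeq2. Between the knockouts the 19 calls became 32 with DESeq2, 11 on the deposited log2 values, 7 with only these groups, 3 with the covariate and 0 to 21 with 1 library left out, 0 being found without Xbp1 KO replicate 1 or 2. Their split of 13 higher and 6 lower became 4 and 22 with upper-quartile scaling. Against their wild types, the 15 calls in Xbp1-Ire1 KO cells became 6 with only these groups, 24 with DESeq2 or upper-quartile scaling, 30 against all wild types and 5 to 23 with 1 library left out. The 6 in Xbp1 KO cells became 11 with only these groups or thinned counts, 12 against all wild types, 15 without a filter, 18 with DESeq2 and 2 to 9 with 1 library left out. The 0 calls for the difference of the changes became 2 without a filter, 3 with upper-quartile scaling and 5 with DESeq2, and the 0 between the wild types became 2 with only these groups, 4 with DESeq2 and 14 without a filter. The 19 over all knockouts became 30 without a filter and 33 with DESeq2.

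In the sample descriptions, replicate numbers are shared by Xbp1-Ire1 KO cells with their wild type and with Xbp1 KO cells. The sample titles instead number the wild types of both lines as a single series and do not name the line. Deviations of same-numbered samples from their group means correlated between -0.26 and 0.26. So few correlations cannot decide whether the numbers pair the samples, and the labels do not say. With a replicate block, the 5p arm between the knockouts was -0.52 (edgeR adjusted p 0.0496) and the calls there 9. Against the wild type of the Xbp1-Ire1 line the block gave -0.18 for the 5p arm, -0.29 for the 3p arm and 4 calls.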
